A study of Mus musculus with 3 samples.

Results

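The genes described here are 30 enzymes, regulators and a carrier of cholesterol and fatty acid synthesis, taken by name from the 32285 genes counted in T cells of mouse tumours. All 30 were found in the count tables. By role, 8 belong to the mevalonate arm, 10 to the branch that turns farnesyl units into cholesterol, 4 to its control and to sterol transport, and 8 to fatty acid synthesis. The cells came from tumours of MC38, a mouse line derived from a colon carcinoma, taken on day 15 with 5 days of treatment, digested and sorted by flow cytometry for CD3, the T cell receptor complex. The groups are labelled homo, mix and PBS, with 1 library each. PBS is the buffer control. The labels do not say what homo and mix contained, and the strain, the age and the number of mice behind a library are not given in the sources used here, while the series title speaks of interleukin-2 targeted through LAG3, a checkpoint receptor on T cells. With 1 library per group no test between groups was possible. Every interval below is a 95% interval of counting error only, and covers neither mice nor library preparation.

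Cells make cholesterol from acetyl-CoA. The mevalonate arm builds isoprenoid units, squalene synthase commits a pair of farnesyl units to sterols, and a chain of oxidations and isomerisations ends in cholesterol, while side products serve to anchor signalling proteins in membranes. Transcription of most of these enzymes is driven by SREBP2, and that of fatty acid synthesis by SREBP1; INSIG proteins hold both precursors in the endoplasmic reticulum when sterols are plentiful, and LXR receptors switch on sterol export. T cells that enter division are known to raise this programme, since each daughter cell needs new membrane.

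The libraries held 8461 to 10351 barcodes and 49179708 to 65336646 UMIs, the counts of distinct transcripts. After filters on genes, UMIs and mitochondrial share and removal of likely doublets, 7303 homo, 7588 mix and 9214 PBS cells were used. UMIs were summed over the cells of 3 gates and scaled to CPM, the UMIs of a gene at a fixed gate total. The CD8 gate (Cd8a or Cd8b1, no Cd4, no Foxp3) held 6517 homo, 5570 mix and 7127 PBS cells, the Foxp3 gate of regulatory T cells 124, 810 and 843, and the CD4 gate without Foxp3 70, 309 and 315. Homo stood apart in depth, with a median of 6923 UMIs per cell in the CD8 gate against 5639 in mix and 5127 in PBS, and in barcodes over the mitochondrial limit of 10%, which were 4.07% of homo, 0.307% of mix and 0.251% of PBS. The 5 T cell marker genes summed to 5611 CPM in homo, 5992 in mix and 5856 in PBS in the CD8 gate. Macrophage markers summed to 24.7, 15.1 and 32.0 CPM there, with 0 of 10 genes at 0 in any library. Between 100 and 131 barcodes were shared by any pair of libraries.

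Promoter sequences are shown for 6 members because SREBP acts through such stretches together with NF-Y, the factor that binds CCAAT. The first 4 belong to members that were lower in homo in the results that follow, Hmgcs1 is a classical SREBP target that carries a close match to the sterol regulatory element, and Ebp is a sterol enzyme that was not lower in homo. Each sequence is the 250 bases before the transcription start from RefSeq (GRCm38.p6), written 5′ to 3′ on the strand of the gene. Capitals mark CCAAT on either strand (ATTGG where it lies on the other) and, in Hmgcs1, the sterol regulatory element with at most 1 mismatch.
Insig1 (chr5:28071162-28071411, plus strand): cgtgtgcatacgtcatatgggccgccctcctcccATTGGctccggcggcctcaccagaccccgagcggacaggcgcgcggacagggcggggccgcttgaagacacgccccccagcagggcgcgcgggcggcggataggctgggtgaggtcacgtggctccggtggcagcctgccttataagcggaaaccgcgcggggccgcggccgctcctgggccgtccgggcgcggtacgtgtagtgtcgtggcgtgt
Cyp51 (chr5:4104698-4104947, minus strand): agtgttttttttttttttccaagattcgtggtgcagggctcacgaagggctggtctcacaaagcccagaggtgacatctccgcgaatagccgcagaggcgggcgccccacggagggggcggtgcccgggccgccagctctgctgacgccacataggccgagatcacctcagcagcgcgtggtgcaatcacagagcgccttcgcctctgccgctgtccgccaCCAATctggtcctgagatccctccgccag
Idi1 (chr13:8885356-8885605, plus strand): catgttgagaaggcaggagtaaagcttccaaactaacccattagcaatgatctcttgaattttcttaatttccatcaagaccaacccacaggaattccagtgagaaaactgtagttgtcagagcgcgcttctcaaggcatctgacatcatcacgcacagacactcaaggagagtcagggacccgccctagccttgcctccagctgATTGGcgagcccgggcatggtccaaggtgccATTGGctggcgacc
Msmo1 (chr8:64733579-64733828, minus strand): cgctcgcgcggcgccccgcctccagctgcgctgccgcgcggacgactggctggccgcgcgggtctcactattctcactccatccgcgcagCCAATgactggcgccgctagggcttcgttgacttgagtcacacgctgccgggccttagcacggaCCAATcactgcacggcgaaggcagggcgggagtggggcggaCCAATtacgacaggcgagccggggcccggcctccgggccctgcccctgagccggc
Hmgcs1 (chr13:119690101-119690350, plus strand): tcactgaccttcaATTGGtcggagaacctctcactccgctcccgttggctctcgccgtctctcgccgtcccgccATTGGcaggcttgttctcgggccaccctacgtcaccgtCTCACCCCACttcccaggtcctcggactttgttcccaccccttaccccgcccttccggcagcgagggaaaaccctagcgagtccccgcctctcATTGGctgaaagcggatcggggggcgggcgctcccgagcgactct
Ebp (chrX:8193513-8193762, minus strand): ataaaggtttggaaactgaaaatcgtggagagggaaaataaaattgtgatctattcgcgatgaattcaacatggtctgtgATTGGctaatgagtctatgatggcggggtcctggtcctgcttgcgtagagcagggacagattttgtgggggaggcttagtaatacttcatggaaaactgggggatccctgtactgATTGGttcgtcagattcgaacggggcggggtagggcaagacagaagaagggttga

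A promoter window of 300 bases, which adds 50 bases after the start, was at hand for 23 of the 30 members. Fads1, Fdft1, Fdps, Scd1, Scd2, Sqle and Stard4 had none. CCAAT was found on either strand in 19 of the 23 members (82.6%), against 37.4% of all 32851 promoters and 41.1% of all genes with a promoter. The share of genes is the like measure, since a member counted when any of its starts matched. The sterol regulatory element in its 10-letter form was found exactly in 0 of 23 members, in 0.0913% of all promoters and in 0.0999% of all genes. With 1 mismatch allowed it was found in 3 members, Hmgcs1, Nsdhl and Srebf2 (13.0%), against 1.95% of all promoters and 2.22% of all genes. In Hmgcs1 this match lay 138 bases before the start. The GC box GGGCGG stood in 18 members (78.3%), against 35.7% of promoters and 38.2% of genes. The E-box CACGTG stood in 4, Dhcr7, Hsd17b7, Insig1 and Sc5d (17.4%), against 7.15% of promoters and 8.09% of genes. A match is a run of letters, not a bound site, and genes with more than 1 start were searched at each.

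In cells of the CD8 gate, a subset of the pathway was at least 1.5-fold lower in homo than in PBS. Among members of at least 10 CPM, none was that far from PBS in mix, though most lay slightly below it. Cyp51, Insig1, Idi1, Msmo1 and Fdps, which serve lanosterol demethylation, feedback control, isopentenyl isomerisation, methyl sterol oxidation and farnesyl synthesis, were at least 1.5-fold lower in homo. Among the 30 members, 20 reached a mean of 10 CPM over the libraries. Of these 20, 5 were at least 1.5-fold lower in homo than in PBS and 0 at least 1.5-fold higher. Among all 7653 genes past the same filter, 4.17% were that far lower and 2.8% that far higher. The median log2 ratio of the 20 was -0.09, with 4 above 0 and 16 below. That of all genes was -0.05, with 42.2% above 0. The 18 enzymes of the mevalonate arm and the sterol branch summed to 363 CPM in homo, 385 in mix and 410 in PBS, a log2 ratio of -0.18 for homo over PBS (interval -0.21 to -0.15). Both treated libraries were set against the same PBS library.

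**Figure D1:**
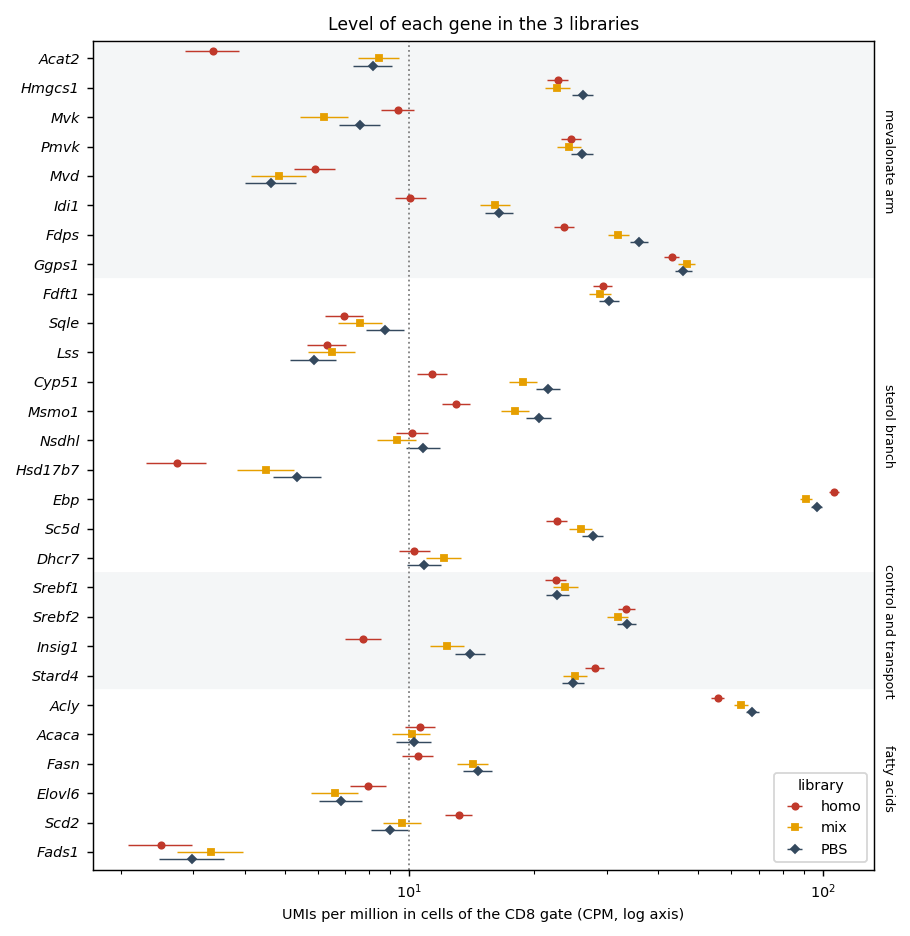
Level of each member in the CD8 gate, in CPM on a log axis, with homo above mix above PBS in each row, bars for the 95% counting interval and a dotted line at 10 CPM. Cyp51, Insig1 and Idi1 have homo to the left of mix and PBS with no overlap of intervals, while Srebf1 and Srebf2 have overlapping intervals in the 3 libraries. Scd1 and Fads2, with 0 UMIs in homo, are not drawn.

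In the mevalonate arm, Idi1 and Fdps were the members past the filter that were 1.5-fold lower in homo. Idi1, the isomerase that makes the reactive isoprenoid unit, had 10.1 CPM in homo (515 UMIs), 16.1 in mix (571) and 16.5 in PBS (681). Fdps, which joins isoprenoid units into farnesyl diphosphate, had 23.7 CPM in homo, 32.1 in mix and 36.0 in PBS. Homo was the low library for both genes, and its intervals did not overlap those of the other libraries. The log2 ratios of homo over PBS were -0.71 for Idi1 (interval -0.88 to -0.55) and -0.60 for Fdps (-0.71 to -0.49). Both intervals include smaller differences than 1.5-fold.

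Hmgcs1, the synthase that opens the mevalonate arm, had 22.9 CPM in homo, 22.8 in mix and 26.3 in PBS, so the treated libraries were alike and PBS a little higher. Pmvk, a mevalonate kinase step, had 24.6, 24.4 and 26.2 CPM in homo, mix and PBS. Ggps1, which makes the geranylgeranyl lipid for protein anchoring, had 43.2, 46.9 and 46.1 CPM in the same order. The log2 ratios of homo over PBS were -0.20 for Hmgcs1, -0.09 for Pmvk and -0.09 for Ggps1, all within 1.5-fold.

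The 3 remaining members of this arm were below 10 CPM. Acat2, which joins acetyl-CoA units in the cytosol, had 3.34 CPM in homo (171 UMIs), 8.42 in mix (298) and 8.16 in PBS (337), which gives the most negative log2 ratio of any member with counts in every library, -1.29 for homo over PBS (interval -1.56 to -1.02). Its near-identical neighbour in sequence, Acat3, had 21, 19 and 18 UMIs in homo, mix and PBS, and reads shared by the pair cannot be told apart. Mvk, the first mevalonate kinase, had 9.38, 6.22 and 7.58 CPM in homo, mix and PBS, with homo highest. Mvd, the decarboxylase, had 5.90, 4.83 and 4.63 CPM, again with homo highest, and log2 ratios of homo over PBS were 0.31 for Mvk and 0.35 for Mvd. The arm as a whole summed to 143 CPM in homo, 162 in mix and 171 in PBS.

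In the sterol branch, Cyp51, the lanosterol demethylase, had 11.3 CPM in homo (581 UMIs), 18.8 in mix (666) and 21.7 in PBS (895). Msmo1, the methyl sterol oxidase that acts after it, had 13.0 CPM in homo, 18.0 in mix and 20.6 in PBS. Homo was lowest for both and PBS highest. The log2 ratios of homo over PBS were -0.93 for Cyp51 (interval -1.09 to -0.78) and -0.66 for Msmo1 (-0.81 to -0.51, which includes differences under 1.5-fold), and those of mix over PBS were -0.20 and -0.19. Hsd17b7, a sterol ketone reductase of the same stretch of the chain, was below 10 CPM, with 140 UMIs in homo, 159 in mix and 221 in PBS, and its log2 ratio of homo over PBS was -0.97 (interval -1.28 to -0.66).

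Other enzymes of the branch were closer to PBS. Fdft1, squalene synthase, had 29.4, 28.9 and 30.4 CPM in homo, mix and PBS. Nsdhl, a sterol decarboxylase, had 10.2, 9.33 and 10.8 CPM, and Dhcr7, the last reductase on the way to cholesterol, 10.3, 12.1 and 10.9 CPM. Their log2 ratios of homo over PBS were -0.05, -0.09 and -0.08. Sc5d, a desaturase late in the chain, had 22.8, 26.0 and 27.8 CPM, a log2 ratio of -0.29 for homo over PBS. Ebp, the sterol isomerase, had 107 CPM in homo, 91.2 in mix and 96.8 in PBS, and was the 1 member of the branch past the filter with a ratio above 0 (0.14, interval 0.08 to 0.20). Its related gene Ebpl, which was counted apart, had 2836, 1613 and 1891 UMIs. Squalene epoxidase, Sqle, was below the filter with 6.95, 7.60 and 8.74 CPM, as was lanosterol synthase, Lss, with 6.31, 6.50 and 5.86 CPM. The branch summed to 219 CPM in homo, 223 in mix and 239 in PBS.

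Among the genes of control and transport, Insig1 stood apart from the transcription factors it holds back. Insig1, itself a target of SREBP and the anchor that retains SREBP in the endoplasmic reticulum, had 7.72 CPM in homo (395 UMIs), 12.4 in mix (437) and 14.0 in PBS (579). Srebf2, which encodes SREBP2, had 33.5, 31.9 and 33.6 CPM in homo, mix and PBS, and Srebf1, which encodes SREBP1, 22.6, 23.9 and 22.8 CPM. The log2 ratio of homo over PBS was -0.86 for Insig1 (interval -1.05 to -0.67), against -0.00 for Srebf2 (-0.11 to 0.10) and -0.01 for Srebf1 (-0.14 to 0.11). SREBP activity is set largely by cleavage of the protein, which these counts do not read. Stard4, a soluble sterol carrier, had 28.1 CPM in homo, 25.1 in mix and 24.9 in PBS, a log2 ratio of 0.17 that was -0.14 in cells without a cell cycle UMI.

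Of the 8 fatty acid genes, 4 passed the filter and none of these was 1.5-fold apart between homo and PBS. Acly, which supplies cytosolic acetyl-CoA from citrate, had 55.7 CPM in homo, 63.5 in mix and 67.6 in PBS. Fasn, the synthase of palmitate, had 10.5, 14.2 and 14.7 CPM, with homo lowest. Their log2 ratios of homo over PBS were -0.28 and -0.48, and Fasn reached -0.72 in cells without a cell cycle UMI. Acaca, the carboxylase that feeds the synthase, had 10.6, 10.1 and 10.2 CPM, a ratio of 0.05. Scd2, a desaturase that introduces the double bond of oleate, ran the other way, with 13.2 CPM in homo (674 UMIs), 9.61 in mix (340) and 8.96 in PBS (370). Its log2 ratio of homo over PBS was 0.56 (interval 0.37 to 0.74), just short of 1.5-fold, and lay between 0.55 and 0.80 over 9 other settings. It passed that line under both other scalings, with CPM averaged over cells, in thinned cells and in cells without a cell cycle UMI.

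The remaining 4 fatty acid genes were sparse. Elovl6, an elongase of saturated chains, had 7.95 CPM in homo, 6.62 in mix and 6.83 in PBS. Fads1, which puts double bonds into polyunsaturated chains, had 128, 117 and 123 UMIs. Fads2, its partner, had 0 UMIs in homo, 4 in mix and 5 in PBS, and Scd1, the paralog of Scd2, had 0, 0 and 1. With 3 UMIs taken as the limit for a count of 0, the limit in homo was 0.0586 CPM, so these 2 genes were near or at the limit of detection in every library. The sum of the 8 was 100 CPM in homo, 107 in mix and 111 in PBS, a log2 ratio of -0.15 for homo over PBS (interval -0.21 to -0.09), and -0.23 with Scd2 left out.

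**Figure D2:**
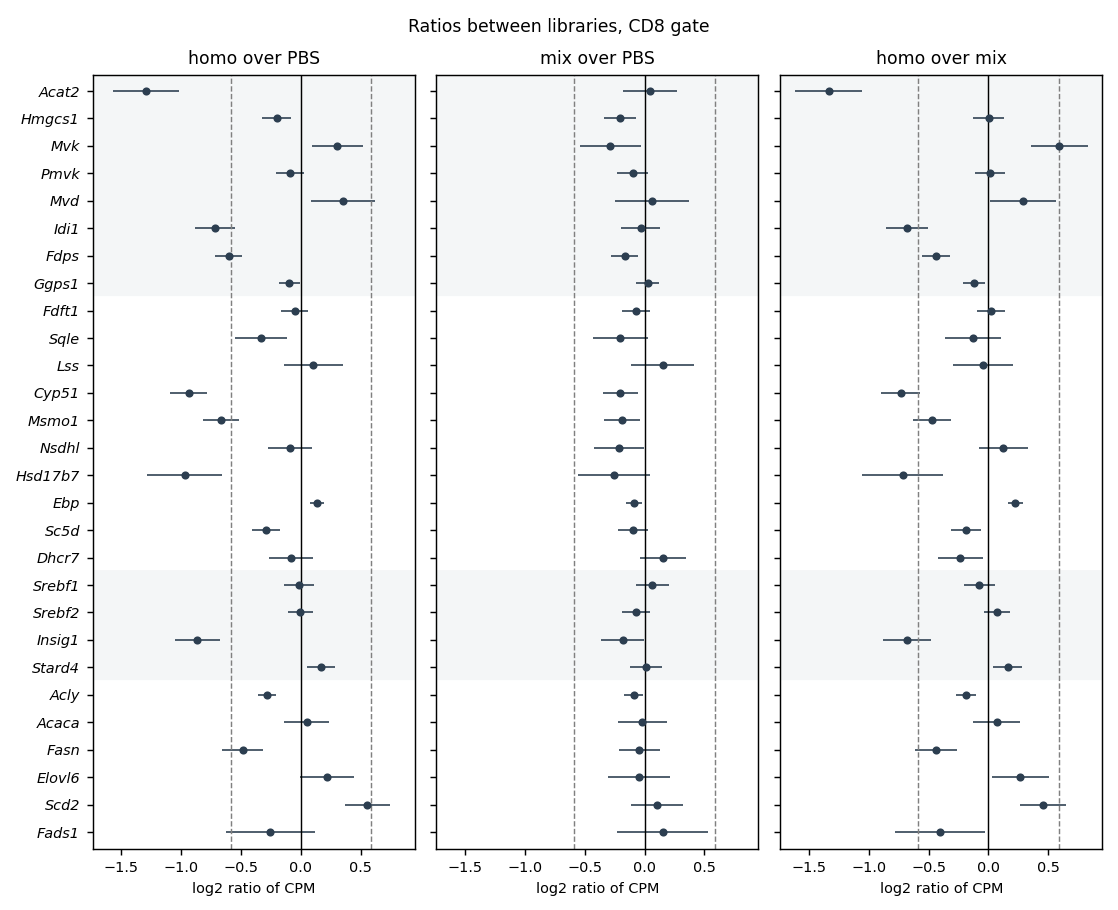
Log2 ratio of CPM in the CD8 gate for homo over PBS, mix over PBS and homo over mix, 1 row per member, with bars for the 95% counting interval and dashed lines at 1.5-fold. Cyp51, Insig1, Idi1, Msmo1 and, by a small margin, Fdps lie left of the dashed line in the first panel, with Acat2 and Hsd17b7, which were below 10 CPM, and 0 members past the filter lie beyond either line in the middle panel.

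Mix differed from PBS by little. None of the 20 members past the filter reached 1.5-fold in either direction, while 0.431% of all genes were that far higher in mix and 0.483% that far lower. The log2 ratios ran from -0.21 to 0.15, with a median of -0.08 against -0.00 for all genes. Of the 20, 5 were above 0 and 15 below, where 49.2% of all genes were above 0. The median for homo over PBS was -0.09, against -0.05 for all genes, so a small shift of the list was not particular to homo. The sterol enzymes together gave -0.09 for mix over PBS (interval -0.12 to -0.06). Among the 5 members that were low in homo, mix over PBS gave -0.20 for Cyp51, -0.19 for Msmo1, -0.18 for Insig1, -0.17 for Fdps and -0.03 for Idi1.

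Set directly against mix, homo was at least 1.5-fold lower in 3 of the 20 members, Cyp51, Idi1 and Insig1, and at least 1.5-fold higher in 0, against 3.99% and 2.73% of all genes. The log2 ratios of homo over mix were -0.73 for Cyp51 (interval -0.89 to -0.57), -0.68 for Idi1 (-0.86 to -0.51) and -0.68 for Insig1 (-0.88 to -0.48). Msmo1 and Fdps gave -0.47 and -0.44. Below the filter, Acat2 had a log2 ratio of -1.33 and Mvk one of 0.59. The median of the 20 was -0.10, and that of all genes -0.05.

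Cells with cell cycle transcripts held more of the sterol enzyme transcripts, and were a larger share in homo. Cells with at least 2 UMIs of 12 cell cycle genes made up 41.4% of the CD8 gate in homo (exact binomial interval 40.2 to 42.6), 26.3% in mix (25.1 to 27.4) and 22.5% in PBS (21.5 to 23.5). Such a share rises with depth: called from cells thinned to 2000 UMIs it was 19.3% in homo (18.3 to 20.3), 11.3% in mix (10.4 to 12.1) and 10.8% in PBS (10.1 to 11.6). The 12 genes summed to 868 CPM in homo, 572 in mix and 628 in PBS, so no order of mix and PBS is read from the shares. In them the 18 sterol enzymes summed to 390 CPM in homo, against 318 CPM in homo cells with no such UMI. The same sums were 429 and 355 CPM in mix, and 459 and 378 CPM in PBS. The log2 ratio of cycling over other cells was thus 0.29, 0.27 and 0.28 in homo, mix and PBS. Idi1, Fdps, Cyp51 and Fasn were at least 1.5-fold higher in cycling cells of all 3 libraries, 4 of the 20 members against 4.66% of all genes, and 0 were that far lower against 1.12%. With cells thinned to 2000 UMIs, Fasn no longer reached that fold in any library, at 0.32, 0.20 and 0.55 on the log2 scale, while the other 3 did in every library. For such ratios, here and below, states were still called from all UMIs, and only the levels came from thinned cells. The states themselves thus still depend on depth. Cycling cells were deeper, with medians of 9286, 8527 and 7727 UMIs in homo, mix and PBS, against 5300, 4681 and 4375 in cells without a cell cycle UMI.

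Idi1 had 13.9 CPM in cycling cells of homo against 4.49 CPM in homo cells with no cell cycle UMI. It had 23.1 against 12.1 CPM in mix and 24.0 against 12.1 CPM in PBS, so cycling cells were higher in every library. Fdps gave log2 ratios of 1.05 in homo, 0.85 in mix and 0.71 in PBS for cycling over other cells. Msmo1 did not share this pattern, at 12.5 against 12.7 CPM in homo, 18.8 against 17.3 in mix and 19.3 against 20.3 in PBS. Ggps1 ran slightly the other way, with log2 ratios of -0.25, -0.21 and -0.36 in homo, mix and PBS.

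Among cycling cells and among cells with no cell cycle UMI, the members that were low in homo stayed low. Among cycling cells, log2 ratios of homo over PBS were -1.01 for Cyp51, -0.79 for Idi1, -0.77 for Insig1, -0.69 for Fdps and -0.63 for Msmo1. Among cells with no cell cycle UMI they were -1.36, -1.43, -1.02, -1.04 and -0.68 in the same order. This class was called from all UMIs and is stricter in deeper cells, which had a median of 5300 UMIs in homo against 4375 in PBS. The part of depth in these ratios was not tested. The sterol sum gave -0.24 among cycling cells and -0.25 among cells without a cell cycle UMI, against -0.18 over the whole gate. Scd2 differed between the classes, at 0.05 among cycling cells and 0.75 among the others, a difference that was not tested. In the other splits, described below, some of these differences were smaller. Among cells without a Lag3 UMI, homo over PBS gave -0.21 for Idi1 (interval -0.71 to 0.28) and -0.07 for the sterol sum (-0.15 to 0.01). Cyp51, Insig1, Msmo1 and Fdps gave -0.88, -0.70, -0.62 and -0.54 there. Among cells with Tcf7 and no Havcr2, Msmo1 gave -0.46 (-1.17 to 0.24), while Cyp51, Idi1, Insig1 and Fdps had intervals below 0.

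**Figure D3:**
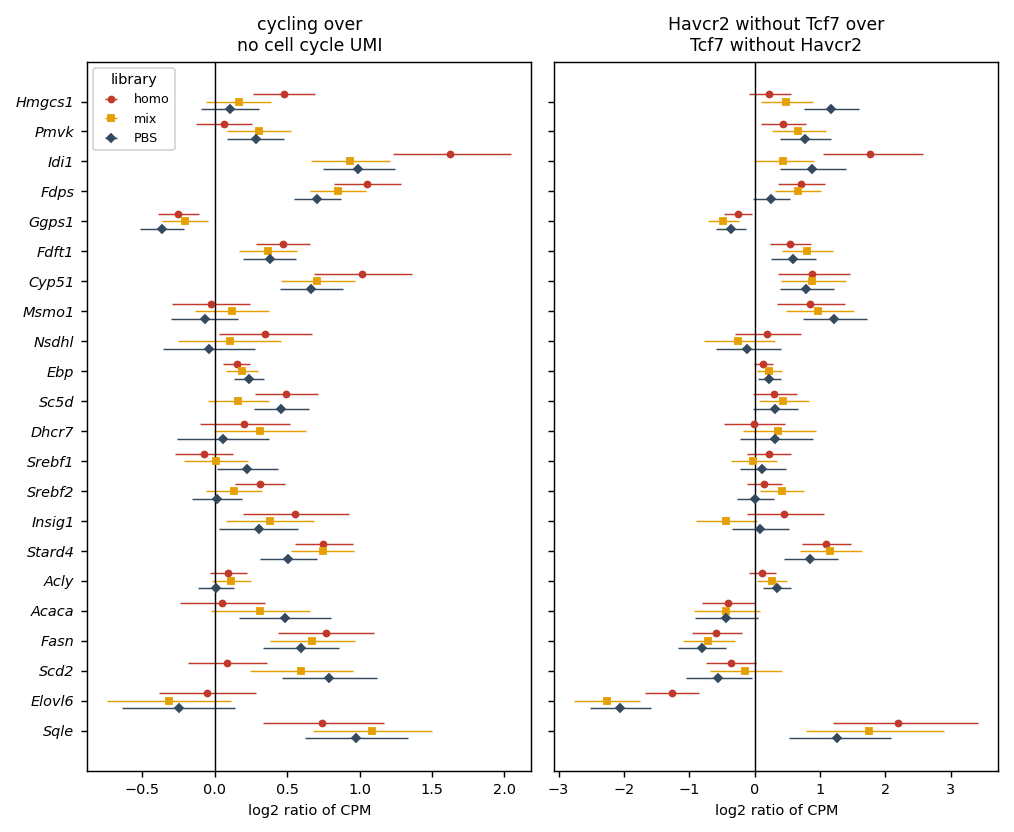
Log2 ratio of CPM between cell states inside the CD8 gate, on the left for cycling cells over cells with no cell cycle UMI, on the right for cells with Havcr2 and no Tcf7 over cells with Tcf7 and no Havcr2, with homo above mix above PBS in each row and bars for the 95% counting interval. Idi1 and Fdps lie to the right in all libraries on the left side, and Elovl6 lies far to the left on the right side.

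Havcr2 encodes TIM-3, a receptor of exhausted T cells, and Tcf7 encodes TCF-1, a factor of stem-like T cells. Cells with Havcr2 and no Tcf7 made up 49.2% of the CD8 gate in homo, 44.1% in mix and 43.6% in PBS, and cells with Tcf7 and no Havcr2 10.7%, 11.4% and 9.63%. Called from thinned cells, the shares were 23.7%, 23.9% and 25.1% for Havcr2 cells and 7.57%, 7.69% and 6.02% for Tcf7 cells, so the higher share of Havcr2 cells in homo was not seen at equal depth. Cyp51, Msmo1 and Stard4 were at least 1.5-fold higher in the Havcr2 cells of all 3 libraries, 3 of the 20 members against 5.02% of all genes, and 0 were that far lower against 4.31%. Msmo1 had 14.2 against 7.92 CPM in homo, 20.9 against 10.7 in mix and 25.4 against 10.9 in PBS. Stard4 had 31.3 against 14.7 CPM in homo, 27.7 against 12.5 in mix and 27.3 against 15.1 in PBS. With states still called from all UMIs and only the levels taken from cells thinned to 2000 UMIs, all 3 were still higher in each library. Each missed 1.5-fold in at least 1. Cyp51 then stood at 0.53, 0.56 and 0.72, Msmo1 at 0.50, 0.94 and 1.35 and Stard4 at 0.65, 0.57 and 1.35 in homo, mix and PBS.

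Along the same axis Elovl6 and Fasn were lower in Havcr2 cells. Elovl6 had 6.66 CPM in Havcr2 cells against 16.1 in Tcf7 cells of homo, 4.01 against 19.2 in mix and 4.56 against 19.0 in PBS. It was thus lower in Havcr2 cells of every library, by log2 ratios of -1.27, -2.26 and -2.06, and by -1.08, -2.21 and -2.29 in thinned cells. Fasn gave -0.58, -0.71 and -0.81 in homo, mix and PBS. The sterol enzymes together stood at 381 against 309 CPM in homo, 406 against 328 in mix and 442 against 342 in PBS, while the fatty acid genes together stood at 99.4 against 117, 104 against 126 and 111 against 129 CPM. In thinned cells the sterol sum gave log2 ratios of 0.29, 0.20 and 0.40 in homo, mix and PBS, and the fatty acid sum -0.09, -0.20 and -0.19, with all 3 intervals of the fatty acid sum reaching past 0. Sqle, below the filter, was higher in Havcr2 cells with log2 ratios of 2.20, 1.75 and 1.26, as was Lss with 1.63, 0.80 and 1.23. In thinned cells Sqle gave 2.55, 1.20 and 0.68 and Lss 0.77, 1.45 and 0.93, and apart from Sqle in homo every one of these intervals included 0.

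Splitting the CD8 gate by a UMI of Lag3 gave a smaller contrast. Lag3 was found in 81.8% of homo, 78.1% of mix and 73.5% of PBS cells, and in 58.0%, 57.9% and 56.6% of thinned cells. Msmo1 was the 1 member of 20 at least 1.5-fold higher in Lag3 cells of all 3 libraries, against 2.7% of all genes, with 13.5 against 8.71 CPM in homo, 19.1 against 11.8 in mix and 22.3 against 13.3 in PBS. In thinned cells, with Lag3 still called from all UMIs, its log2 ratios were 0.77, 0.38 and 0.54 in homo, mix and PBS. This was short of 1.5-fold in mix and PBS, and Lag3 cells were the deeper ones (medians of 7524 against 4692 UMIs in homo). None was that far lower, against 2.82% of all genes. Elovl6, below the filter, had 7.34 against 12.6 CPM in homo, 5.01 against 15.8 in mix and 5.18 against 13.9 in PBS. Splitting by a UMI of Il2ra, the interleukin-2 receptor chain CD25, left 0 of the 20 members 1.5-fold higher and 0 lower in all 3 libraries, against 0.274% and 0.314% of all genes. Idi1 had 13.4 against 7.84 CPM in homo, 21.0 against 13.5 in mix and 20.5 against 14.6 in PBS. In thinned cells its log2 ratio was 0.26 in homo (interval -0.39 to 0.88), 0.63 in mix and 0.41 in PBS, against 0.77, 0.64 and 0.49 without thinning.

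The same enzymes were also counted per cell. With each CD8-gated cell thinned to 2000 UMIs and 403 homo, 301 mix and 335 PBS cells left out as shallower, the 18 sterol enzymes gave a mean of 0.698 UMIs per cell in homo, 0.747 in mix and 0.770 in PBS. At least 1 such UMI was found in 49.2% of homo, 51.6% of mix and 51.9% of PBS cells. At least 3 were found in 3.42% of homo (exact binomial interval 2.98 to 3.90), 4.73% of mix (4.17 to 5.33) and 5.32% of PBS cells (4.79 to 5.88). A lower mean by itself puts the ratio of homo to PBS further from 1 at the higher cut. These shares thus cannot show how the difference is spread over cells. The variance over the mean was 1.09 in homo, 1.10 in mix and 1.16 in PBS. Without thinning the share with at least 1 UMI was 82.9%, 81.1% and 80.1%, the reverse order, with homo as the deepest library. No cell type that lacks these housekeeping genes was at hand as a background for free RNA.

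In the Foxp3 gate Insig1, Idi1, Cyp51 and Msmo1 were lower in homo too, on far fewer counts. This gate held 478164 UMIs in homo, 3402862 in mix and 3330305 in PBS. Insig1 had 2 UMIs in homo (4.18 CPM), 73 in mix (21.5 CPM) and 75 in PBS (22.5 CPM), Idi1 4, 63 and 92 UMIs, Cyp51 5, 96 and 91, and Msmo1 8, 122 and 162. Their log2 ratios of homo over PBS were -2.43 for Insig1 (interval -5.50 to -0.53), -1.72 for Idi1 (-3.63 to -0.32), -1.39 for Cyp51 (-3.04 to -0.11) and -1.54 for Msmo1 (-2.78 to -0.53). Over the other settings that give a ratio they ranged from -2.45 to -0.71, -2.30 to -1.33, -1.92 to -0.62 and -1.75 to -1.05 in the same order. Of 19 members past the filter, 7 were at least 1.5-fold lower in homo than in PBS, where 11.2% of all genes were, and 3 at least 1.5-fold higher, where 12.2% were. The other 3 of the 7, Fdps, Hmgcs1 and Nsdhl, had intervals that reached above 0. Sterol enzymes summed to 387 CPM in homo, 497 in mix and 521 in PBS, a log2 ratio of -0.43 for homo over PBS (interval -0.66 to -0.21).

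The members that were higher in homo in the Foxp3 gate were Elovl6, Fasn and Stard4. Elovl6 had 25 UMIs in homo (52.3 CPM), 67 in mix (19.7 CPM) and 51 in PBS (15.3 CPM), a log2 ratio of 1.77 for homo over PBS (interval 1.02 to 2.49). Fasn had 13, 48 and 50 UMIs and Stard4 14, 63 and 56, and the intervals of their ratios, 0.86 and 0.80, reached below 0. Fatty acid genes together had 190 CPM in homo, 132 in mix and 127 in PBS (log2 0.59, interval 0.24 to 0.92). Markers of regulatory T cells differed in this gate, with Foxp3 at 757, 784 and 796 CPM, Il2ra at 563, 867 and 802, Ctla4 at 719, 1132 and 1327 and Ikzf2 at 1359, 1028 and 939 in homo, mix and PBS. Il2ra and Ctla4 were lowest in homo and Ikzf2 highest. Cell cycle genes summed to 663 CPM in homo, 470 in mix and 660 in PBS, and macrophage markers to 10.5, 58.8 and 74.8. The part of these in the differences was not tested.

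Mix and PBS were close in the Foxp3 gate too. Of 19 members, 0 were that far from PBS in either direction, against 1.38% of all genes higher and 1.74% lower, and the sterol sum gave -0.07 (interval -0.17 to 0.03). Homo over mix gave 7 lower members, Cyp51, Hmgcs1, Idi1, Insig1, Msmo1, Nsdhl and Pmvk, against 10.7% of all genes, and 3 higher ones, Elovl6, Fasn and Stard4, against 11.4%. These rest on few counts in homo. Under other settings Hmgcs1 came to -0.09, Nsdhl to -0.19, Msmo1 to -0.45 and Pmvk to -0.58, short of 1.5-fold. Cyp51, Idi1, Insig1 and the 3 higher members stayed past it wherever a ratio was given. The medians of homo over mix and of homo over PBS were -0.42 and -0.34, and that of mix over PBS was -0.02, with all genes at 0.02, 0.02 and 0.00.

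The CD4 gate was too thin for single members, with 219 UMIs of all 30 members in homo and at most 29 for any 1 gene. Its sterol sum was 490 CPM in homo, 422 in mix and 402 in PBS, and the log2 ratio of homo over PBS, 0.28, had an interval of -0.01 to 0.57. It was -0.09 in cells without a cell cycle UMI. Fatty acid genes summed to 167 CPM in homo (46 UMIs), 118 in mix and 113 in PBS, a log2 ratio of 0.56 (interval 0.03 to 1.07). The cell cycle list stood at 718 CPM in this gate in homo, 294 in mix and 215 in PBS.

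**Figure D4:**
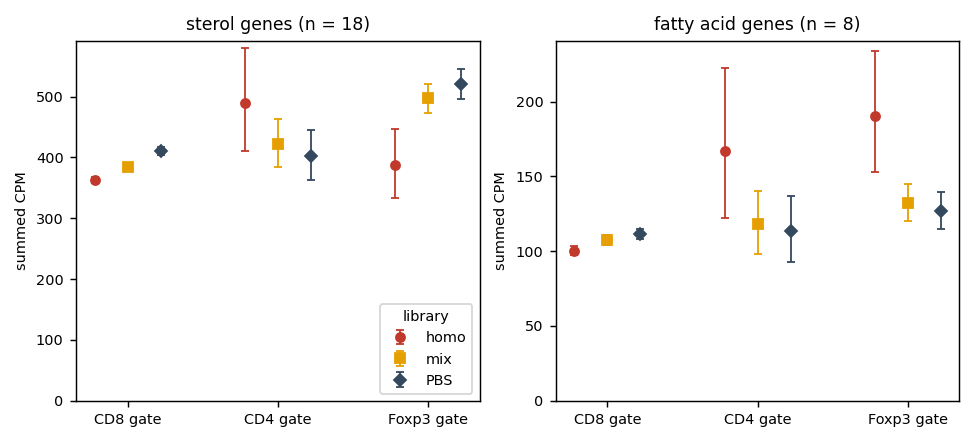
Summed CPM of the 18 sterol genes (left) and the 8 fatty acid genes (right) by gate, for homo, mix and PBS from left to right, with bars for the 95% counting interval. In the Foxp3 gate homo is below mix and PBS for sterol genes (387, 497 and 521 CPM) and above them for fatty acid genes (190, 132 and 127 CPM).

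Other genes of sterol biology were read as companions of the members. Of 13 other sterol and SREBP control genes, 8 passed the filter in the CD8 gate and none of them was 1.5-fold apart between homo and PBS, with a median log2 ratio of 0.03. Mbtps1, the protease that cuts SREBP, was the highest of them, with 29.2, 28.3 and 25.2 CPM in homo, mix and PBS. Npc2 and Npc1, which carry sterol out of lysosomes, had log2 ratios of 0.18 and -0.11, and none of the 3 sterol uptake genes past the filter was 1.5-fold apart.

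Of 10 genes of sterol export and LXR, 6 passed the filter and none was 1.5-fold apart between homo and PBS. Their log2 ratios had a median of 0.30, with 5 of 6 above 0, where all genes had a median of -0.05 with 42.2% above 0. Abcg1, a sterol exporter, had 15.9 CPM in homo, 14.4 in mix and 13.1 in PBS. Mylip, an LXR target that limits sterol uptake, had 16.2, 12.8 and 11.3 CPM, a log2 ratio of 0.52 (interval 0.35 to 0.68). Both were highest in homo. Nr1h2, which encodes LXR-beta, had 64.0, 69.8 and 68.8 CPM, and Abca1, a second exporter below the filter, 99, 52 and 53 UMIs.

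Of 17 fatty acid oxidation genes, 16 passed the filter, 14 had ratios of homo over PBS above 0 (42.2% of all genes), and 1 was 1.5-fold higher (2.8% of all genes). The median was 0.19, against -0.05 for all genes. That gene was Cpt1a, the gate of fatty acid entry into mitochondria, with 29.5 CPM in homo (1512 UMIs), 16.9 in mix (599) and 17.4 in PBS (720). Its log2 ratio was 0.76 for homo over PBS (interval 0.63 to 0.89) and 0.80 for homo over mix, and -0.04 for mix over PBS. Among cycling cells it was 0.76 and among cells without a cell cycle UMI 0.77. Hadhb, a subunit of the mitochondrial trifunctional protein, was the lowest of the list, with 68.7, 79.3 and 80.1 CPM.

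Of 21 other fatty acid synthesis genes, 14 passed the filter and 0 were 1.5-fold apart between homo and PBS. They ranged from Fabp5, a fatty acid carrier with 12.9 CPM in homo, 14.6 in mix and 18.3 in PBS, to Mlxip, a glucose-sensing transcription factor with 33.9, 26.7 and 23.9 CPM. Of 13 genes that use isoprenoids, 11 passed and 0 were 1.5-fold apart, with a median of -0.25. Fnta and Fntb, the subunits of protein farnesyltransferase, were at its ends, with 46.9, 38.9 and 37.8 CPM for Fnta and 8.01, 12.2 and 11.3 CPM for Fntb.

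**Figure D5:**
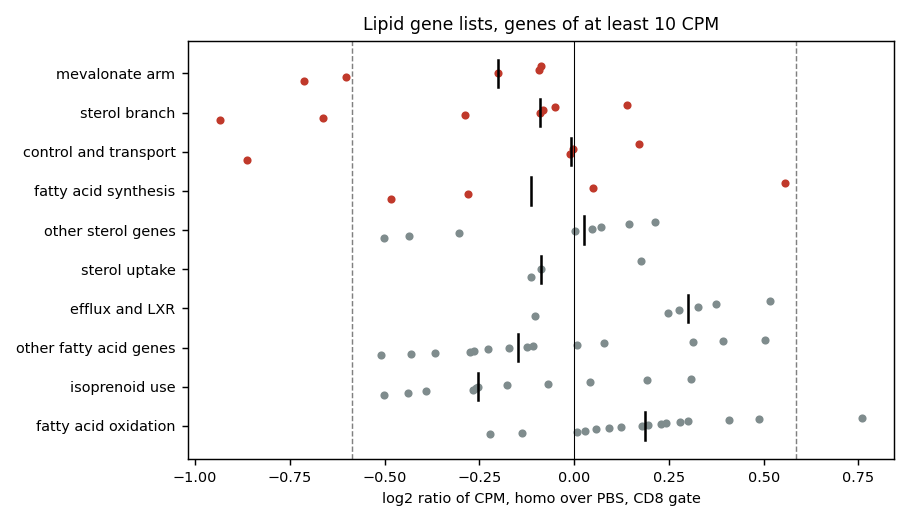
Log2 ratio of CPM, homo over PBS in the CD8 gate, for genes of at least 10 CPM in 10 lipid gene lists, with the members in red, companion genes in grey, a black bar at the median of each list and dashed lines at 1.5-fold. The 5 members beyond the left line are Cyp51, Insig1, Idi1, Msmo1 and Fdps, and Cpt1a is the 1 gene beyond the right line.

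The differences in the CD8 gate were set beside what else differed between these libraries. Without cells holding at least 3 UMIs of macrophage markers, the log2 ratios of homo over PBS were -0.94 for Cyp51, -0.86 for Insig1 and -0.72 for Idi1. Under a mitochondrial limit of 5% they were -0.93, -0.86 and -0.71. With every cell thinned to 2000 UMIs, in a single random draw, they were -0.60, -0.81 and -0.89. Those of Fdps and Msmo1 were -0.56 and -0.40 in that draw, short of 1.5-fold. The separate draw used for the cell states differed for Msmo1. There Msmo1 had 12.2 CPM in homo and 22.6 in PBS among Lag3 cells, and 7.12 and 15.5 among cells without Lag3. Whether equal depth takes Fdps or Msmo1 under 1.5-fold was thus not settled. Scaling without mitochondrial, ribosomal protein and T cell receptor genes left Fdps at -0.55, also short of it, and Msmo1 at -0.61.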

How the data were processed

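Libraries were made from CD3-sorted cells of MC38 tumours with a 10x Genomics 3′ kit, per the labels. The deposited matrices hold raw UMI counts per gene and barcode, written by Cell Ranger 7.1.0 per the file headers, while mm39, Seurat 4.1.0 and Cell Ranger 2.1.1 are named in the submitters' processing notes. The lowest barcode held 500 UMIs. Cells needed 1000 or more UMIs, 500 or more genes and a mitochondrial share under 10%. Scrublet in scanpy 1.11.5 called 0 or 1 doublets per library with its own threshold, so the highest scores were removed at 0.8% for every 1000 barcodes (485 homo, 527 mix and 803 PBS). Gates needed at least 1 UMI of a CD3 gene. UMIs were summed per gate and scaled to CPM. Levels carry exact Poisson intervals, ratios exact conditional binomial ones and shares Clopper-Pearson ones, at 95%. UMIs collapse PCR copies, but not differences between mice. A gene entered a comparison of a gate at a mean of 10 CPM over its 3 libraries, and at least 1.5-fold was counted as apart. No test between groups was made, since each has 1 library. The script for ratios was tested on simulated data. The 10 members below 10 CPM are described but not counted. Members at or above 10 CPM were described in every library, and of each companion list the highest and lowest gene by homo over PBS, with Abca1, Abcg1 and Cpt1a always named; some genes of this rule are not reported here. Promoters came from RefSeq on GRCm38.p6, matched by symbol, and were searched on both strands. Alternatives covered scaling, filters, gates, thinning, doublets and left-out cells. The members and lists were chosen with earlier results of these data known. Scripts ran in Python 3.11.15 with scipy 1.17.1, pandas 2.3.3 and numpy 2.4.6.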

Additional observations from a re-analysis of the deposited data

Results flagged for a closer look

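Fatty acid genes went in opposite directions in different gates under the same contrast. Their summed level for homo over PBS gave a log2 ratio of -0.15 in the CD8 gate, 0.59 in the Foxp3 gate and 0.56 in the CD4 gate. For homo over mix it gave -0.098 in the CD8 gate and 0.53 in the Foxp3 gate. The difference between gates was not tested, since each gate comes from the same single library per group. In homo these sums rest on 5141 UMIs in the CD8 gate, 91 in the Foxp3 gate and 46 in the CD4 gate, and Elovl6 alone gave 25 of the 91.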

How the results depend on the processing

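No paired analysis was possible because each group had 1 library, and for the same reason no replicate could be left out. In the CD8 gate, Cyp51, Idi1 and Insig1 were at least 1.5-fold lower in homo than in PBS under 9 other settings that give single ratios, with log2 ratios of -1.36 to -0.60, -1.43 to -0.66 and -1.02 to -0.81. Fdps ranged from -1.04 to -0.55 and Msmo1 from -0.68 to -0.40, so both missed 1.5-fold in some. The thinned values among these come from a single random draw. The separate draw used for the cell states gave wider differences for Msmo1 and Cyp51 and a narrower one for Idi1. Leaving doublets in and a mitochondrial limit of 5% left all counts within 1.5 times of those reported and all sums within their intervals. State shares at equal depth were an alternative chosen after seeing the data. The cause of each shift that follows was not tested.

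Scaling without mitochondrial, ribosomal protein and T cell receptor genes moved the sterol sum in the CD8 gate to -0.13 for homo over PBS and -0.031 for homo over mix, and put 1 member 1.5-fold higher in each comparison. Centring on the median of all genes gave -0.13 and -0.035, with 1 member higher for homo over PBS. Averaging CPM over cells gave 1 higher member for homo over PBS and 1 for homo over mix in the CD8 gate, and 1 for mix over PBS in the Foxp3 gate. Thinning to 2000 UMIs gave 1 higher member for homo over PBS, a sterol sum of -0.13 and a fatty acid sum of -0.22 there, and a fatty acid sum of -0.14 for mix over PBS. The separate draw used per cell gave fatty acid means of 0.201 UMIs in homo, 0.204 in mix and 0.220 in PBS. This is a smaller difference for homo over PBS than -0.22, so whether equal depth widens it was not settled. In the thinned Foxp3 gate, 5 members were higher for homo over PBS, 1 higher and 4 lower for mix over PBS with a fatty acid sum of -0.20, and 4 lower for homo over mix with a fatty acid sum of 0.96. Asking for 2 UMIs of the gate gene gave 2 higher members for mix over PBS and 5 for homo over mix in the Foxp3 gate, and left Insig1 with 0 UMIs in homo and no ratio.

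Cells with 0 cell cycle UMIs gave sterol sums in the CD8 gate of -0.25 for homo over PBS and -0.16 for homo over mix, of -0.089 for homo over PBS in the CD4 gate, 1 higher member for mix over PBS in the Foxp3 gate, and Stard4 at -0.14 for homo over PBS in the CD8 gate, a change of sign. Without cells rich in macrophage markers, 1 member was lower for mix over PBS in the Foxp3 gate. A filter of 50 CPM left 2 members in the CD8 gate and 4 in the Foxp3 gate, with 0 past 1.5-fold in either direction. With no filter, 8 members were lower for homo over PBS in the CD8 gate, and 6 lower and 1 higher for homo over mix. Both counts of lower members include Fads2, which had 0 UMIs in homo and was near or at the limit of detection in every library. In the Foxp3 gate, 2 were then higher and 3 lower for mix over PBS, and 6 higher for homo over mix. All cells with a CD3 UMI gave a sterol sum of -0.12 for homo over mix. Depth limits the homo part of the CD4 and Foxp3 gates, where 3 UMIs, taken as the limit for a count of 0, come to 10.9 and 6.27 CPM.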
